A study of Mus musculus with 16 samples.

Results

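The Slc25 genes encode the mitochondrial carrier family. Members were taken as every gene row whose symbol is Slc25a followed by a number, which gave 47 genes of the 52459 gene rows in the count table. They were measured by RNA sequencing in bone marrow stromal cells of 8 Townes mice, 4 of genotype SS and 4 of genotype SA, with 1 library per mouse. The cells were sorted as live singlets that lacked CD45, Ter119 and CD31 and carried CD51 and CD140a, a gate meant for mesenchymal stem cells. Both genotypes carry human alpha-globin (hα/hα) in place of the mouse gene. SS mice are homozygous for human sickle beta-globin (βS/βS), and their allele with human Aγ-globin and βS replaces the mouse adult beta-globin genes, which gives a model of sickle cell disease. SA mice carry 1 βS and 1 human wild-type βA copy (βA/βS) and served as controls, so that no mouse had only normal human or only mouse globin. The labels state neither age nor sex.

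Carriers of this family are small proteins of the inner mitochondrial membrane, most of which swap a substrate of the matrix for one of the cytosol. They bring ADP and phosphate in and ATP out, link the malate-aspartate shuttle and the citrate export that feeds lipid synthesis, and import iron, glycine, glutathione and cofactors such as coenzyme A, NAD and folate. A few members lie elsewhere, among them Slc25a17 in peroxisomes and Slc25a46 in the outer mitochondrial membrane. In erythroid cells, Slc25a37 and Slc25a38 supply iron and glycine for heme. Carriers of the family take part in the exchange between glycolysis in the cytosol and oxidation in the matrix, while pyruvate has a carrier outside it.

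Total counts ran from 24797857 to 31117007 per library. All 9 stromal marker genes were detected in every library, with a summed level of 13822 to 30706 CPM (counts scaled to a common library total) in SA and 20183 to 29845 CPM in SS. All 15 pan-leukocyte genes were also detected in every library, although CD45+ cells were gated out, and their summed level was 4319, 4856, 1522 and 886 CPM in SA replicates 1 to 4 and 2889, 456, 1213 and 403 CPM in SS replicates 1 to 4. SA replicates 1 and 2 and SS replicate 1 were therefore the 3 leukocyte-rich libraries. All 15 pan-leukocyte genes had a lower mean in SS. The sums of neutrophil genes (6088 to 34871 CPM in SA, 1365 to 16845 CPM in SS) and erythroid genes (1075 to 1944 CPM in SA, 483 to 1745 CPM in SS) overlapped between genotypes. The sums of the 10 B cell genes (509 to 1836 CPM in SA, 398 to 419 CPM in SS) and the 6 pericyte genes (527 to 627 CPM in SA, 1068 to 5906 CPM in SS) did not. Most of each SS B cell sum was Ebf1, which overlapped between genotypes (285 to 410 CPM in SA, 277 to 384 CPM in SS). Rgs5 was the largest part of each pericyte sum (192 to 459 CPM in SA, 725 to 4998 CPM in SS). The sums were not compared without these genes, so each separation may rest on 1 gene. SS replicate 2 alone was rich in Xist, with 57347 counts against 57 to 420 elsewhere, and poor in the Y-linked Ddx3y, with 12 counts against 2282 to 4436. In bulk RNA, fewer cells of a type and less RNA per cell cannot be told apart.

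Of the 47 genes, 46 had at least 1 count. Slc25a48, described as a choline carrier, had 0 counts in all 8 libraries. The low-count filter kept 40 members among 17316 genes. The other 7 were Slc25a2, Slc25a31, Slc25a34, Slc25a41, Slc25a43, Slc25a48 and Slc25a54. As a share of a library, the family took 0.111% of counts in SS replicate 2 (95% Wilson interval 0.110 to 0.112%, counting error only) to 0.154% in SA replicate 1 (0.153 to 0.156%). Its summed level averaged 1335 ± 129 CPM over the SA mice and 1268 ± 41.6 CPM over the SS mice (SD, n = 4 each). The 2 SA libraries rich in leukocyte transcripts gave the highest sums, 1439 and 1454 CPM, and SS replicate 1 followed at 1330 CPM, while the other 5 lay between 1210 and 1249 CPM. A few genes made up most of it. The iron carrier Slc25a37 (14.3%), the phosphate carrier Slc25a3 (13.1%), the ADP/ATP carrier Slc25a5 (12.7%), the NAD carrier Slc25a51 (9.02%) and the ADP/ATP carrier Slc25a4 (7.97%) gave 57.1% of the family's CPM over the 8 libraries. Their order differed between libraries: Slc25a37 led in SA replicates 1 and 2 and SS replicates 1 and 3, and was the lowest of the 5 in SA replicate 4 and SS replicate 4.

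Levels between genes were compared per length, as CPM per kilobase of exon. Slc25a5, the adenine nucleotide translocator of growing cells, stood first in SA at 107.8 ± 17.4 (SD, n = 4), and no SA library of Slc25a5 overlapped one of the next gene. Slc25a37 at 35.8 ± 16.3, Slc25a4 at 34.4 ± 20.01 and Slc25a3 at 32.7 ± 3.18 followed and overlapped each other. Slc25a51 came next at 20.99 ± 3.90, below every SA library of Slc25a3. From there to the bottom of the order each gene overlapped the next, through the peroxisomal cofactor carrier Slc25a17 (16.5), the ATP-Mg/phosphate carrier Slc25a24 (12.5) and the oxoglutarate/malate carrier Slc25a11 (11.6). In all, 13 members reached 5 or more on this scale in SA. The glycine carrier Slc25a38 (8.65), the outer membrane protein Slc25a46 (8.45), the glutathione carrier Slc25a39 (7.55), the pyrimidine nucleotide carrier Slc25a36 (7.54) and the branched-chain amino acid carrier Slc25a44 (7.51) were among them. Lengths are unions of all annotated exons. With coding length alone the order changed, since the exon union of Slc25a37 and Slc25a51 is far longer than their coding part: Slc25a5 stayed first at 198.5, Slc25a37 was at 177.6, Slc25a3 at 147.7, Slc25a51 at 122.4 and Slc25a4 at 90.5, and 33 members reached 5.

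**Figure D1:**
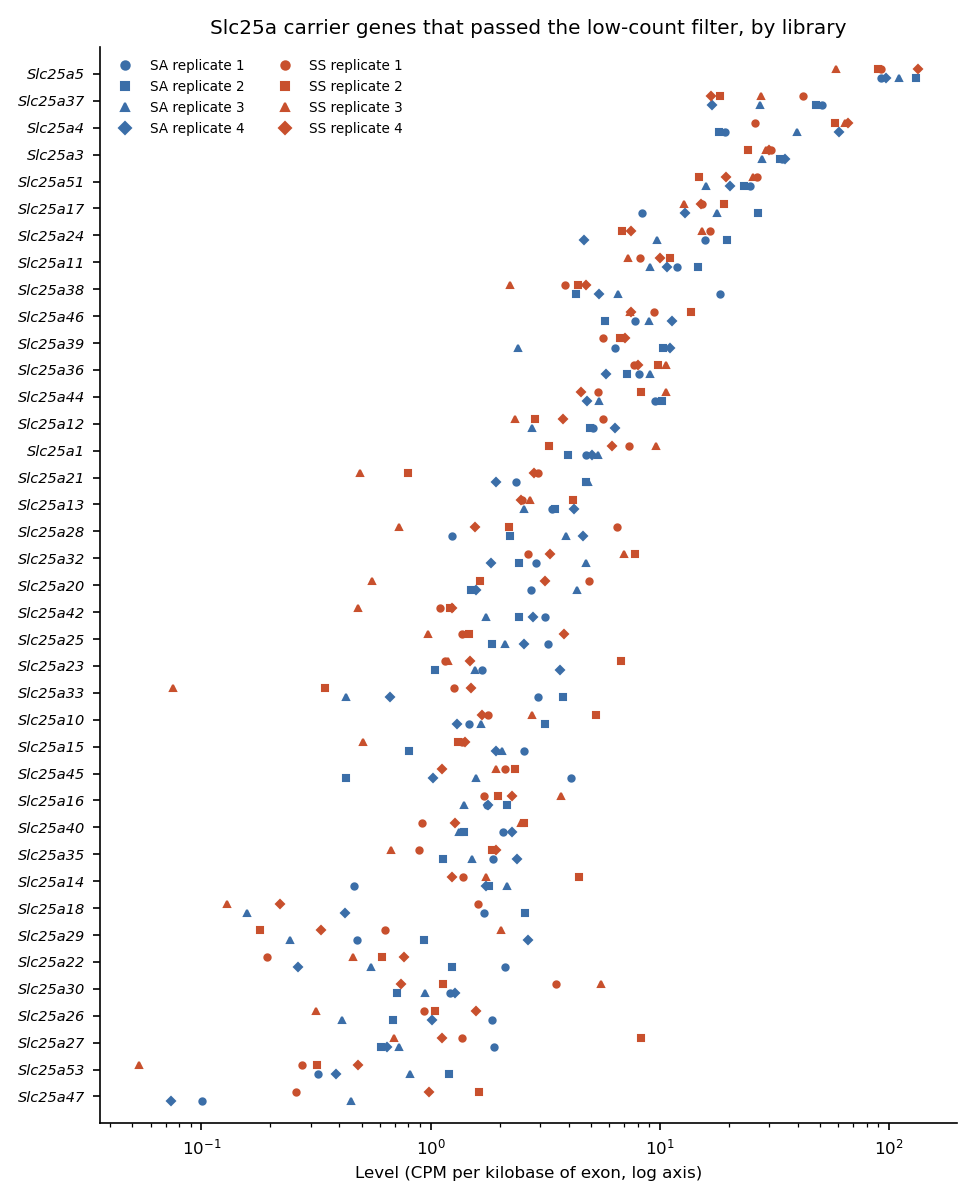
Level of Slc25a genes that passed the low-count filter, in CPM per kilobase of exon on a log axis, 1 point per library, ordered by the SA mean. SA points are blue and SS points red, the shape gives the replicate, and values of 0 are not drawn. Slc25a5 is at the top with an SA mean of 107.8, and the genotypes overlap for every gene drawn except Slc25a42.

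Between genotypes, edgeR called 0 of the 40 members at an adjusted p under 0.05, against 0% of all genes tested, and the smallest adjusted p of a member was 0.695. At an unadjusted p under 0.05, edgeR gave 2 members, Slc25a42 and Slc25a38, both lower in SS (0 higher), against 6.98% of all genes (2.96% lower and 4.03% higher). Limma-voom called 0 members (0% of all genes). DESeq2 called 1 of the 40, Slc25a42 (adjusted p = 0.0441), against 1.33% of the same genes. SS had the higher value for 16 members and the lower for 24, so that 40% were higher, against 49% of all genes, which leaves 51% of all genes lower. The median log2 fold change of SS over SA was -0.12 for the members and -0.014 for all genes. The genotypes did not overlap for 1 tested member, Slc25a42, or 2.5%, against 3.91% of all genes (1.55% lower and 2.36% higher in SS). A log2 fold change past 1 in size was seen for 9 members, or 22.5%, against 21.2% of all genes. These shares were near the background, and the median standard error (SE) of 0.49 for the members was close to the 0.58 of all genes.

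**Figure D2:**
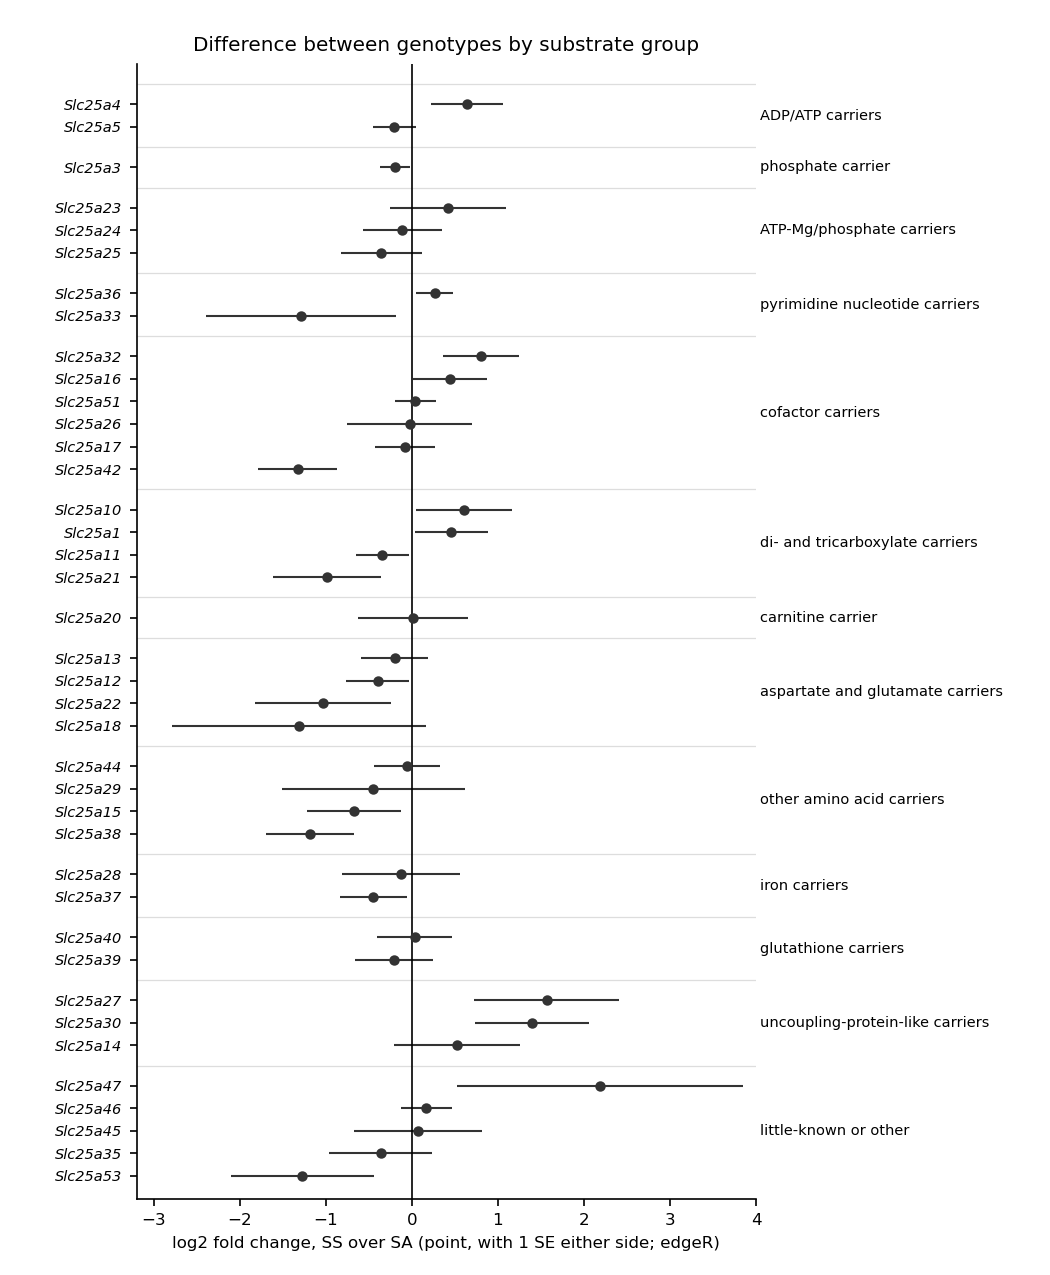
Log2 fold change of SS over SA for tested Slc25a genes, grouped by substrate, with 1 SE either side from edgeR. No gene drawn passed an adjusted p under 0.05. Slc25a42, at -1.33, is the cofactor carrier farthest from 0, the 8 amino acid carriers all lie below 0, and the 3 uncoupling-protein-like carriers all lie above 0.

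Upstream sequence is shown for the 2 members with an unadjusted p under 0.05, Slc25a42 and Slc25a38. It is from RefSeq promoter windows on GRCm38.p6, read 5′ to 3′ on the gene's strand, as 150 bases that end before the first annotated exon. Capitals mark CCAAT boxes (CCAAT, or ATTGG where the box is on the other strand) in Slc25a42 and an ETS site (CCGGAAG) in Slc25a38.
Slc25a42, chr8:70212306-70212455, minus strand: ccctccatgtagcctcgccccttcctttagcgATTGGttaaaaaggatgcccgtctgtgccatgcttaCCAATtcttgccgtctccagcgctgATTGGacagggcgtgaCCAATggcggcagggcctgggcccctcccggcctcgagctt
Slc25a38, chr9:120110224-120110373, plus strand: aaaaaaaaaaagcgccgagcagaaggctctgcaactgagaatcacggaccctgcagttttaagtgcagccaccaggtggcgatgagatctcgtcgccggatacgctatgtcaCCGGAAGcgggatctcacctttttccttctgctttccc
The Slc25a42 stretch holds 4 CCAAT boxes, which begin 142, 106, 81 and 65 bases before the RefSeq start, on alternating strands. The Slc25a38 stretch holds 1 ETS site, 46 bases before the start.

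RefSeq windows matched 36 of the 47 members. In the 250 bases before the start, and on both strands, CCAAT was found in 18 of the 36 (50%, against 37.49% of 27025 genes) and the GC box GGGCGGGG in 11 (30.6%, against 18.02%). The E-box CACGTG was found in 7 (19.4%, against 6.86%), those of the citrate carrier Slc25a1, Slc25a13, Slc25a14, Slc25a15, Slc25a31, Slc25a33 and Slc25a36. The ETS motif CCGGAAG was found in 6 (16.7%, against 7.83%), among them Slc25a3, Slc25a4, Slc25a17 and Slc25a38. The nuclear respiratory factor 1 consensus was found in 2, those of Slc25a3 and Slc25a31 (5.6%, against 4.23%), the cyclic AMP response element TGACGTCA in 2 (5.6%, against 1.77%) and the estrogen-related receptor motif AAGGTCA in 1 (2.8%, against 4.7%). The TATA box TATAAA (5.6%, against 14.33%) and the GATA motif AGATAA (5.6%, against 11.43%) were each found in 2. The GC content of these windows had a median of 59.2% for the members and 52.4% for all genes. A motif match describes the letters only, and the motif shares, like the GC content, carry no test.

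Cofactor carriers held the member with the smallest p. Slc25a42 (chromosome 8, 70184340 to 70212305, protein-coding), which exchanges coenzyme A for adenine nucleotides, was at 18.9, 14.6, 10.4 and 16.8 CPM in SA replicates 1 to 4 and at 6.59, 7.28, 2.90 and 7.42 CPM in SS replicates 1 to 4. Every SS library lay below every SA library. The means were 15.2 ± 3.62 and 6.04 ± 2.13 CPM (SD, n = 4 each; log2 fold change -1.33, SE 0.46, edgeR adjusted p = 0.695, unadjusted 0.0152). Leaving out any 1 mouse gave -1.48 to -1.09, the pan-leukocyte covariate -1.41 and the omission of the 3 leukocyte-rich libraries -1.22. That omission, here and below, leaves only SA replicates 3 and 4 against SS replicates 2, 3 and 4. The B cell and pericyte gene sums given above, which rest largely on Ebf1 and Rgs5, also did not overlap between genotypes. Their part in this difference was not tested. Slc25a32, which carries folate and FAD, was at 17.6, 14.7, 28.9 and 11.2 CPM in SA and 16.2, 47.5, 42.3 and 20.2 CPM in SS, where SS replicates 2 and 3 were high and SS replicates 1 and 4 lay within the SA range (18.1 ± 7.66 and 31.5 ± 15.7 CPM; log2 fold change 0.80, SE 0.44, adjusted p = 0.752 by edgeR). Of the 7 cofactor carriers, 3 were higher and 4 lower in SS. Slc25a51, which imports NAD, was nearly level (116 ± 21.5 and 119 ± 30.3 CPM, log2 fold change 0.04), as was Slc25a17 (46.9 ± 22.7 and 44.3 ± 7.40 CPM). The S-adenosylmethionine carrier Slc25a26 was at 4.75 ± 2.99 and 4.67 ± 2.50 CPM. Slc25a16, linked to coenzyme A, had a log2 fold change of 0.44.

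**Figure D3:**
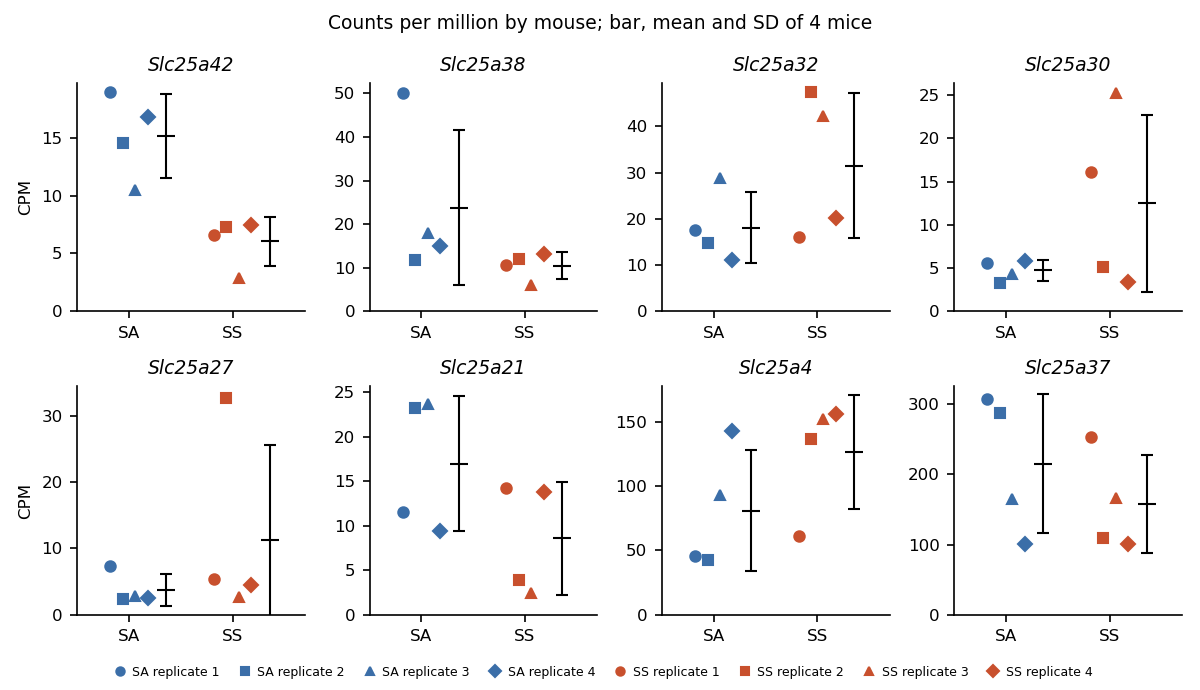
CPM in each library for 8 Slc25a genes, SA in blue and SS in red, with the mean and SD of 4 mice beside the points (the lower SD bar of Slc25a27 in SS is cut at 0). The genotypes separate for Slc25a42 (10.4 CPM or more in SA, 7.42 CPM or less in SS), and single libraries stand high for Slc25a38 (SA replicate 1) and Slc25a27 (SS replicate 2).

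The ADP/ATP carriers are the main exchangers of the family. Slc25a4 (chromosome 8, 46206797 to 46211284), the isoform best known from heart and muscle, was at 45.5, 42.7, 93.1 and 142 CPM in SA and 61.5, 136, 152 and 156 CPM in SS. SA replicates 1 and 2 and SS replicate 1 were the lowest of all 8, and these are the 3 leukocyte-rich libraries. Its means were 80.9 ± 47.1 and 126 ± 44.1 CPM (n = 4 each; log2 fold change 0.64, SE 0.42, edgeR adjusted p = 0.774). With the pan-leukocyte covariate the log2 fold change was 0.01, and without these 3 libraries 0.33. Slc25a5 (chromosome X, 36795651 to 36798807) was at 153, 216, 182 and 159 CPM in SA and 152, 148, 96.7 and 220 CPM in SS, with the lowest and the highest value both in SS (177 ± 28.7 and 154 ± 50.8 CPM; -0.20, SE 0.25, edgeR adjusted p = 0.893). Slc25a31, the germ cell isoform, had at most 0.634 CPM in any library.

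The ratio of Slc25a4 to Slc25a5 within a library does not depend on the scaling of that library. On the log2 scale of counts it was -1.75, -2.34, -0.97 and -0.16 in SA and -1.30, -0.12, 0.65 and -0.50 in SS. It was lowest in SA replicate 2, the library with the most leukocyte transcripts, followed by SA replicate 1 and SS replicate 1. The SS mean exceeded the SA mean by 0.99 (two-sided exact permutation p = 0.171, adjusted p = 0.857 over 10 pairs, smallest possible p 0.0286). Per kilobase, Slc25a4 exceeded Slc25a5 in 1 of 8 libraries, SS replicate 3. Slc25a3 (chromosome 10, 91116574 to 91124059), which brings in the phosphate for ATP synthesis and also copper, varied least of the main members, at 156 to 195 CPM in SA and 135 to 170 CPM in SS (182 ± 17.7 and 158 ± 15.7 CPM; log2 fold change -0.20, SE 0.17, edgeR adjusted p = 0.830).

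**Figure D4:**
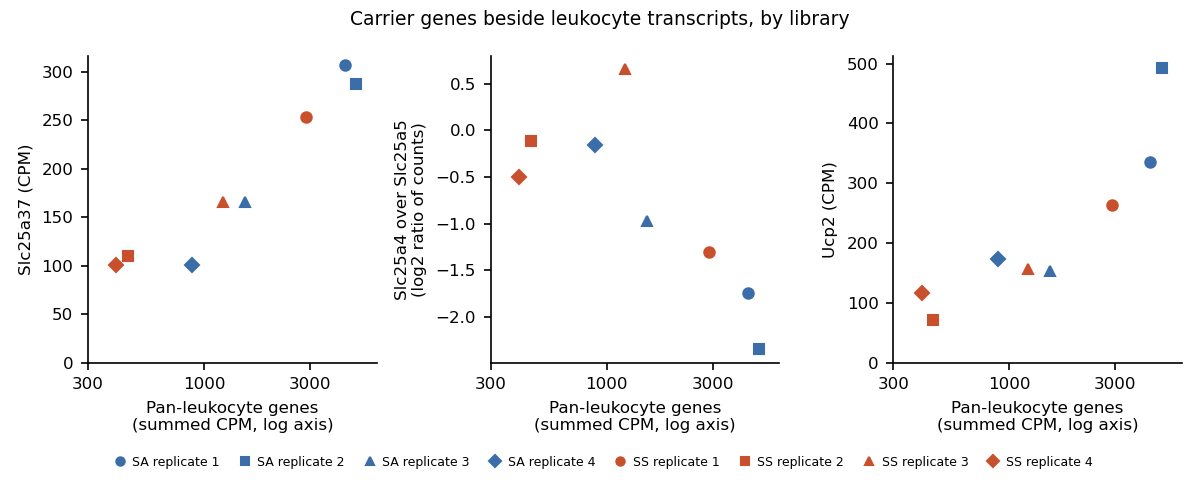
Slc25a37 (CPM), the log2 ratio of Slc25a4 to Slc25a5 counts, and Ucp2 (CPM), each against the summed CPM of 15 pan-leukocyte genes on a log axis, 1 point per library (SA blue, SS red). The 3 leukocyte-rich libraries, at 2889 CPM or more, have the highest Slc25a37 and Ucp2 and the lowest ratio. These 3 libraries also have the highest erythroid gene sums. In the other 5 libraries the ratio runs from -0.97 to 0.65. The parts of leukocyte and erythroid transcripts in these values were not tested.

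Among the other nucleotide carriers, the ATP-Mg/phosphate carriers load the matrix with adenine nucleotides in response to calcium. Slc25a24 averaged 42.8 ± 22.7 CPM over the SA mice and 39.6 ± 17.4 over the SS mice, Slc25a25 at 19.2 ± 4.80 and 15.0 ± 10.2 CPM and Slc25a23 at 10.5 ± 6.12 and 14.1 ± 14.6 CPM. None of the 3 had a difference beyond its SE (0.46 for Slc25a24, 0.47 for Slc25a25 and 0.67 for Slc25a23), and Slc25a23 reached 36.0 CPM in SS replicate 2. Slc25a41, of the same branch, had counts in 1 library, SA replicate 1, at 0.113 CPM. Of the pyrimidine nucleotide carriers, Slc25a36 was at 72.4 ± 13.2 and 86.9 ± 13.5 CPM. Slc25a33, the other one, was far lower at 3.68 ± 3.14 and 1.51 ± 1.31 CPM (log2 fold change -1.29, SE 1.10). Slc25a33 lay below Slc25a36 per kilobase in all 8 libraries, and their ratio differed between genotypes by -1.73 (exact permutation p = 0.286, adjusted p = 0.952). Without SS replicate 3 that difference was -0.80 and without SA replicate 3 it was -2.36. Slc25a33 shares 14.9% of its exon bases and Slc25a11 8.92% with genes on the other strand, so that reads there cannot be assigned.

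Iron enters the matrix through the mitoferrins. Slc25a37, mitoferrin 1 (chromosome 14, 69241848 to 69285112), was at 306, 288, 165 and 101 CPM in SA and 254, 110, 166 and 100 CPM in SS. The 3 leukocyte-rich libraries were again the 3 highest, at 254 CPM or more. The 3 libraries with the fewest leukocyte transcripts (SA replicate 4 and SS replicates 2 and 4) were the lowest, at 100 to 110 CPM. The 3 leukocyte-rich libraries also had the highest erythroid gene sums, 1840, 1944 and 1745 CPM, against 483 to 1323 CPM elsewhere. Among the other libraries, SS replicate 4 had the most erythroid transcripts (1323 CPM) and the lowest Slc25a37. The parts of leukocyte and erythroid transcripts in these values were not tested. The means were 215 ± 98.4 and 158 ± 70.3 CPM (n = 4 each; log2 fold change -0.45, SE 0.39, edgeR adjusted p = 0.830). With the covariate the sign turned, to 0.33, and without these 3 libraries the value was -0.09. Slc25a28, mitoferrin 2, was lower, at 4.66 to 17.4 CPM in SA and 2.72 to 24.3 CPM in SS (11.2 ± 5.78 and 10.3 ± 9.62 CPM; -0.13, SE 0.69, edgeR adjusted p = 0.986). Without SS replicate 1, its highest library, that value was -1.001, and without SS replicate 3, its lowest, it was 0.19. Omitting the 3 leukocyte-rich libraries gave -1.52. Slc25a37 exceeded Slc25a28 per kilobase in all 8 libraries, by 3.63-fold in SA replicate 4 to 40.8-fold in SA replicate 1. The difference of their log2 ratio between genotypes was -0.01 (exact permutation p = 1).

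Glycine for heme enters through Slc25a38 (chromosome 9, 120110374 to 120124504), whose human counterpart is mutated in a congenital sideroblastic anemia. It was at 50.2, 11.9, 18.0 and 15.0 CPM in SA and 10.6, 12.1, 6.11 and 13.1 CPM in SS. SA replicate 1 stood far above the rest, SS replicate 3 was the lowest, and the genotypes overlapped. The means were 23.8 ± 17.8 and 10.5 ± 3.07 CPM (n = 4 each; log2 fold change -1.18, SE 0.51, edgeR adjusted p = 0.695, unadjusted 0.0414). Without SA replicate 1 the log2 fold change was -0.52. Erythroid genes were at 1840 CPM in SA replicate 1 and at 1944 CPM in SA replicate 2, where Slc25a38 was at 11.9 CPM, and their part in these values was not tested. The glutathione carriers Slc25a39 (20.8 ± 11.04 and 18.0 ± 1.64 CPM; -0.21, SE 0.45, edgeR adjusted p = 0.954) and Slc25a40 (14.8 ± 3.92 and 15.1 ± 6.96 CPM; 0.03, SE 0.43, edgeR adjusted p = 0.994) were close between genotypes. Slc25a39 ran from 6.63 to 30.5 CPM within SA and only from 15.6 to 19.4 CPM within SS. Per kilobase of exon Slc25a39 exceeded Slc25a40 in all 8 libraries. In counts it was the lower in SA replicate 3 and SS replicates 2 and 3 (log2 ratios -0.76, -0.21 and -0.16). Their coding lengths are close (1085 and 1011 bases).

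The 8 tested carriers of aspartate, glutamate and other amino acids all lay below 0, against 51% of all genes. Values overlapped between genotypes for each of them, and some differences were small beside their SE, such as Slc25a44 (-0.06, SE 0.39). The aspartate/glutamate exchangers of the malate-aspartate shuttle, Slc25a12 (aralar; 35.3 ± 11.02 and 26.8 ± 10.7 CPM) and Slc25a13 (citrin; 12.9 ± 2.57 and 11.3 ± 3.09 CPM), had log2 fold changes of -0.40 and -0.20. The glutamate carrier Slc25a22 was at 12.7, 7.43, 3.28 and 1.58 CPM in SA and 1.16, 3.69, 2.76 and 4.58 CPM in SS, so that the leukocyte-rich SA replicates 1 and 2 were high and SS replicate 1 was the lowest (6.24 ± 4.94 and 3.05 ± 1.46 CPM; -1.03, SE 0.79, edgeR adjusted p = 0.801). Without the 3 leukocyte-rich libraries its log2 fold change was 0.59. Its relative Slc25a18 was at 2.33 ± 2.17 and 0.933 ± 1.43 CPM (-1.32, SE 1.48). The mitochondrial ornithine carrier Slc25a15, part of the urea cycle in liver, was at 10.3 ± 4.15 and 6.49 ± 2.43 CPM (-0.67, SE 0.54). The basic amino acid carrier Slc25a29 was at 2.82 ± 2.86 and 2.07 ± 2.19 CPM, and Slc25a44 at 26.9 ± 10.0 and 25.8 ± 10.1 CPM.

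Slc25a2, a second ornithine carrier, did not pass the low-count filter. It had 117, 27, 1 and 6 counts in SA replicates 1 to 4 and 0 in every SS library. Against a floor of 3 counts per SS library (0.104 CPM on average), the SA mean of 1.40 CPM was at least 13.4-fold higher. The SA mean without SA replicate 1, which held most of the counts, was at least 3.81-fold higher. SA replicate 3 (0.033 CPM) lay below that floor, so these bounds hold for the means and not for each SA library. DESeq2, run on the whole table, gave it an adjusted p of 0.0182, while edgeR with no low-count filter gave an adjusted p of 0.484 (unadjusted 0.00524). The 2 libraries with the most counts were SA replicates 1 and 2, which were rich in leukocyte transcripts, and their part in this difference was not tested. SS replicate 1, also leukocyte-rich, had 0.

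Carriers of di- and tricarboxylates split evenly, with 2 higher and 2 lower. Slc25a1, which exports citrate, averaged 10.4 ± 1.32 CPM in the SA mice and 14.3 ± 5.74 in the SS mice (log2 fold change 0.46, SE 0.42). The dicarboxylate carrier Slc25a10 was at 6.54 ± 2.93 and 9.93 ± 5.75 CPM (0.60, SE 0.56), and the oxoglutarate/malate carrier Slc25a11 at 24.6 ± 5.04 and 19.3 ± 3.60 CPM (-0.35, SE 0.31). The log2 ratio of Slc25a10 to Slc25a11 was -2.31, -1.52, -1.74 and -2.34 in SA and -1.49, -0.36, -0.69 and -1.86 in SS. Its difference of 0.87 had the smallest p of the 10 pairs (exact permutation p = 0.114, adjusted p = 0.857), with SS replicate 4 inside the SA range and SS replicate 1 just above it. Slc25a21, the oxoadipate carrier of lysine and tryptophan breakdown, was at 11.5, 23.3, 23.7 and 9.38 CPM in SA and 14.3, 3.87, 2.40 and 13.8 CPM in SS. Each genotype held a high pair and a low pair (17.0 ± 7.58 and 8.58 ± 6.31 CPM; -0.98, SE 0.63, edgeR adjusted p = 0.767). The carnitine/acylcarnitine carrier Slc25a20, which brings fatty acids in for oxidation, was at 12.3 ± 6.44 and 12.4 ± 9.19 CPM (log2 fold change 0.01, SE 0.64).

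The 3 uncoupling-protein-like carriers were all higher in SS, each through 1 or 2 libraries. Slc25a30, known as kidney mitochondrial carrier protein 1, was at 5.56, 3.27, 4.32 and 5.85 CPM in SA and 16.1, 5.18, 25.2 and 3.39 CPM in SS. SS replicates 1 and 3 were high, while SS replicates 2 and 4 lay within the SA range (4.75 ± 1.19 and 12.5 ± 10.2 CPM; log2 fold change 1.39, SE 0.66, edgeR adjusted p = 0.729; 0.80 without SS replicate 3). In these libraries the macrophage gene sum was 597 and 915 CPM in SS replicates 1 and 3 and 156 and 150 CPM in SS replicates 2 and 4, against 139 to 779 CPM in SA. Its part in the difference was not tested, and in SA replicate 2, at 779 CPM of macrophage genes, Slc25a30 was at 3.27 CPM. Slc25a27, also called UCP4 and best known from brain, was at 7.41, 2.40, 2.88 and 2.54 CPM in SA and 5.39, 32.6, 2.72 and 4.42 CPM in SS. Only SS replicate 2 lay above the SA range (3.81 ± 2.41 and 11.3 ± 14.3 CPM; 1.57, SE 0.84, edgeR adjusted p = 0.749), and without it the log2 fold change was 0.14. Slc25a14, also called UCP5, was likewise highest in SS replicate 2, where it reached 10.5 CPM, and ran from 1.09 to 5.09 CPM elsewhere (0.52, SE 0.73).

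Of the carriers with a little-known or other substrate, 3 of the 5 tested were higher. Slc25a46, which acts in mitochondrial membrane dynamics, was the most abundant of them, at 45.8 ± 12.5 and 51.5 ± 15.9 CPM (log2 fold change 0.17, SE 0.30). Slc25a47, a liver carrier, was at 0.301, 0, 1.34 and 0.221 CPM in SA and 0.775, 4.85, 0 and 2.93 CPM in SS, with a value of 0 in each genotype (0.465 ± 0.596 and 2.14 ± 2.19 CPM; 2.19, SE 1.66, edgeR adjusted p = 0.7996). That log2 fold change was 3.58 without SA replicate 3, 1.40 without SS replicate 2 and 0.54 with the pan-leukocyte covariate. Its start lies 162 bases from that of Slc25a29 on the other strand. Slc25a53 was at 2.56, 9.59, 6.46 and 3.09 CPM in SA and 2.18, 2.53, 0.424 and 3.84 CPM in SS, where SS replicate 4 lay above SA replicates 1 and 4 (5.42 ± 3.27 and 2.24 ± 1.41 CPM; -1.27, SE 0.83, edgeR adjusted p = 0.773). Slc25a45 and Slc25a35 were at 4.93 ± 4.47 and 6.34 ± 1.956 CPM in SA and at 5.17 ± 1.46 and 4.93 ± 2.40 CPM in SS. For Slc25a35, 31.3% of the exon bases are shared with other genes on GRCm38, and since no source used here gives the strand setting of the counting, reads there cannot be assigned. Slc25a43 (chromosome X, 36743659 to 36777202, 18448 bases from Slc25a5) did not pass the filter. It had 1, 5, 3 and 7 counts in SA and 17, 25, 8 and 136 in SS, so that every SS library lay above every SA library at low counts, most of them in SS replicate 4. DESeq2 gave it an adjusted p of 0.0882, and edgeR with no low-count filter one of 0.484.

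Ratios of related carriers were compared within each library for 10 pairs, and none separated the genotypes. None passed the adjusted test, but that test could not have called 1 pair alone. The smallest possible p was 0.0286 before adjustment over 10 pairs, so the lack of calls says nothing about any 1 pair. Besides those given above, Slc25a12 exceeded Slc25a13 per kilobase of exon in 6 of 8 libraries, all but SS replicates 2 and 3. In counts it was the higher in every library, and the coding lengths are nearly equal (2031 and 2028 bases). Their log2 ratio of counts averaged 1.41 ± 0.23 over the SA mice and 1.20 ± 0.79 over the SS mice (exact permutation p = 0.657, n = 4 each). Per kilobase of exon, Slc25a24 exceeded both Slc25a25 and Slc25a23 in all 8 libraries. In counts it lay below Slc25a25 in SA replicate 4 and SS replicate 4 (log2 ratios -0.32 and -0.23). It lay below Slc25a23 in SA replicate 4 and SS replicate 2 (-0.27 and -0.62). The log2 ratios of counts differed between genotypes by 0.49 (exact permutation p = 0.457) and -0.15 (exact permutation p = 0.886). Of the glutamate carriers Slc25a22 and Slc25a18, Slc25a22 was the higher per kilobase of exon in 5 of 8 libraries. In counts it was the higher in all but SS replicate 1. In SS replicate 2, where Slc25a18 had no count, the log2 ratio with 0.5 added to each count was 7.68. Their difference of 1.56 (exact permutation p = 0.486) was 0.085 without that library. For Slc25a14 and Slc25a30 the difference was -0.46 (exact permutation p = 0.771), and for Slc25a39 and Slc25a40 it was 0.068 (exact permutation p = 0.914). No adjusted p over the 10 pairs was below 0.857.

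Libraries differed in how the family lay within them. SS replicate 3 held the lowest value of the 8 libraries for 14 of the 40 members (35.0%, against 12.4% of all genes), among them Slc25a42, Slc25a38, Slc25a21, Slc25a28 and Slc25a5. SS replicate 2 held the highest for 8 of the 40, against 15.6% of all genes. 4 members lie on the X chromosome (Slc25a5, Slc25a14, Slc25a43 and Slc25a53). SS replicate 2 was the one library with high Xist, and also the one whose title bears a date-like number of its own. Of the 4 members, Slc25a14 was highest in SS replicate 2, Slc25a43 second highest, and Slc25a5 and Slc25a53 lay within the range of the other libraries.

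Other genes of mitochondrial transport were examined beside the family, in a list of 37: uncoupling proteins and carrier-like proteins with other symbols, porins, the pyruvate carrier, sideroflexins, calcium transport, mitochondrial ABC transporters and the import machinery that inserts carriers. Of these 35 were tested. edgeR called 0 (0 also at an unadjusted p under 0.05, against 6.98% of all genes), DESeq2 0 and limma-voom 0. SS was higher for 17 and lower for 18 (median log2 fold change -0.02), and 0 were without overlap, against 3.91% of all genes. By group, the 12 genes of the carrier import machinery had 8 higher and 4 lower (median 0.13), the 5 sideroflexins, of which Sfxn1 carries serine, had 3 higher and 2 lower (median 0.40), and the 7 calcium transport genes had 3 higher and 4 lower (median -0.05). The 3 mitochondrial ABC transporters were all lower (median -0.54). Timm9 and Timm10 are chaperones that pass carriers across the intermembrane space. They averaged 8.63 ± 7.18 and 4.22 ± 1.30 CPM over the SA mice and 15.3 ± 7.61 and 6.73 ± 2.51 CPM over the SS mice. Both were picked after their values were seen. Their log2 fold changes (0.82, SE 0.65, and 0.67, SE 0.58) were the highest of the 12 import genes, of which 4 were lower in SS. Ucp2, an uncoupling protein abundant in immune cells, had the smallest p. It was at 336, 493, 154 and 173 CPM in SA and 263, 72.1, 158 and 116 CPM in SS, highest in the 3 leukocyte-rich libraries (289 ± 158 and 152 ± 81.8 CPM; -0.92, SE 0.45, edgeR adjusted p = 0.734; -0.11 with the pan-leukocyte covariate). Mtch1, a carrier homologue of the outer membrane, was at 44.0 ± 18.0 and 63.5 ± 12.4 CPM (0.53, SE 0.31, edgeR adjusted p = 0.758). The porin Vdac2 was at 108 ± 19.0 and 88.0 ± 4.69 CPM (-0.30, SE 0.19, edgeR adjusted p = 0.775). Ucp1, the uncoupling protein of brown fat, had 0 counts in all 8 libraries. The pyruvate carrier subunit Mpc2 was level at 71.3 ± 2.23 and 69.4 ± 16.3 CPM.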

How the data were processed

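Per the labels, a kit for low RNA input made the libraries from total RNA. The count table is the raw one that the authors deposited, with genes by symbol and 1 column per mouse, for 16 samples that are 2 lanes of each of 8 libraries. Per the submitters' processing notes, bcl2fastq, STAR, featureCounts and DESeq2 were used with mm10 and GRCm38. Their versions, the annotation and the strandedness are not given in the sources used. A deposited table of normalized values was not used. The title of 1 lane of SS replicate 4 says SS while its source and group labels say SA, and its column was kept in SS by title. The labels number the mice within a genotype and say nothing further of separate animals, so p-values measure the spread between these libraries, part of which may be technical. Date-like numbers in the titles put all SA libraries in 1 set, SS replicates 1, 3 and 4 in another and SS replicate 2 alone, and these sets and the genotype cannot be told apart, since no set allows a comparison within it.

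Total counts ran from 24797857 to 31117007. Genes were tested with edgeR 4.0.16 (R 4.3.3) after filterByExpr with genotype as group, with TMM scaling, a robust quasi-likelihood F test and Benjamini-Hochberg adjustment over all 17316 genes with a threshold of 0.05. CPM uses TMM-adjusted totals. SE is the log2 fold change divided by the root of F. DESeq2 1.42.0, limma 3.58.1 (voom), other scalings and filters, a replicate block, a pan-leukocyte covariate and the omission of each mouse or of the 3 leukocyte-rich libraries were alternatives. Ratios of related genes used counts + 0.5 and a two-sided exact permutation test over 70 arrangements, for pairs with both genes at a mean of at least 1 CPM. Gene positions and lengths are from GENCODE M21 (GRCm38). Intervals and floors cover counting error only. Scripts were tested on simulated data.

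Members, lists and pairs were chosen with earlier results of these data known. Every member may be named. Fold change, SE and adjusted p go to those past the threshold, or else to the 10 with the smallest p, and to Slc25a3, Slc25a4, Slc25a5, Slc25a28, Slc25a37, Slc25a38, Slc25a39 and Slc25a40. Of the companion genes, those 4 with the smallest p have full values, as far as they are reported, and Ucp1, Mpc2, Timm9 and Timm10 were added after their values were seen. 1 member and 1 companion gene are counted but not reported or drawn here.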

Additional observations from a re-analysis of the deposited data

Results flagged for a closer look

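Among 80 groups of 4 libraries (40 members in 2 genotypes), 9 held a library whose gap to its nearest neighbour was, as a part of the group's range, above Dixon's critical value. Chance gives about 1 in 20 where values are normally distributed, which CPM values need not be. No share over all genes is given beside it, so whether the family held more such libraries than other genes was not tested. Of the 9, 4 were in SS replicate 2, which is also the one library with high Xist. It is alone in its set by the date-like numbers in the titles, and the 2 cannot be told apart. There Slc25a27 was at 32.6 CPM, the calcium-regulated ATP-Mg/phosphate carrier Slc25a23 at 36.0 CPM, citrin (Slc25a13) at 15.9 CPM and Slc25a14 at 10.5 CPM, each above the other SS libraries. Slc25a27 also stood apart within SA, at 7.41 CPM in SA replicate 1. Slc25a38 was at 50.2 CPM in SA replicate 1, above the other SA libraries. Slc25a25 was at 30.2 CPM in SS replicate 4 and Slc25a18 at 3.07 CPM in SS replicate 1, both above the other SS libraries. Slc25a15 was at 2.86 CPM in SS replicate 3, below the other SS libraries.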

How the results depend on the processing

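Over 18 alternatives to the edgeR fit, the number of members called stayed at 0 except with DESeq2, which called 1 of those edgeR tested, Slc25a42. Slc25a42 kept a negative log2 fold change throughout, from -1.48 to -1.09, and so did Slc25a38, from -1.40 to -0.52. With the replicate number as a block, 0 members were called, 14 were higher and 26 lower, and Slc25a40 turned to -0.058. Same-numbered libraries correlated at 0.20, -0.13, -0.02 and 0.13, so the numbers were not taken as pairs, and 2 of 4 numbers matched best with themselves. Members without overlap numbered 3 with no low-count filter (6.52%, against 2.71% of all genes), 8 without the 3 leukocyte-rich libraries (19.5%, against 22.1% of all genes) and 1 to 5 over omissions of single mice, from 2.5% without SS replicate 1 (10.1% of all genes) to 12.2% without SA replicate 2 (6.22%). The members' median was 0.030 without the leukocyte-rich libraries and -0.20 to -0.08 over omissions of single mice. Without the leukocyte-rich libraries 10 companion genes were lower, their median was 0.11 and 6 had no overlap (17.1%, against 22.1% of all genes), with 0 to 2 when single mice were left out (at most 5.71%, against 5.85 to 10.1% of all genes).

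Signs turned for Slc25a39 (0.028 with limma-voom, 0.016 without the leukocyte-rich libraries), Slc25a40 (-0.059 with limma-voom, -0.068 with library totals, -0.27 with the covariate), Slc25a37 (0.33 with the covariate) and Slc25a22 (0.59 without those libraries). Without them the ratio of Slc25a37 to Slc25a28 differed by 1.56 and that of Slc25a24 to Slc25a23 by 0.51. The cause of each turn was not tested. With each mouse left out, Slc25a28 ran from -1.001 to 0.19, Slc25a39 from -0.51 to 0.039, Slc25a40 from -0.18 to 0.25, and the ratio differences from -0.60 to 0.57 (Slc25a37/Slc25a28), -0.29 to 0.39 (Slc25a39/Slc25a40), -0.90 to 0.67 (Slc25a24/Slc25a23), -0.51 to 0.065 (Slc25a12/Slc25a13) and -1.15 to 0.064 (Slc25a14/Slc25a30). With coding length, 33 members reached a level of 5 in place of 13. With a median SE of 0.49 at 4 mice a genotype, differences of the size most members showed cannot be told from the spread between mice.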
